A study of Homo sapiens with 14 samples.

Results

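This report sets the transcriptional effect of JQ1 beside the effect of YAP/TAZ knockdown in MDA-MB-231, a human breast cancer line of mesenchymal character, and tests gene by gene where they part. It rests on 10 of the 14 RNA-seq libraries of the series, those that form the 2 effects. The JQ1 effect is the difference between 2 libraries of cells given 1 µM JQ1 for 24 h and 2 libraries of DMSO controls. The YAP/TAZ effect is the difference between 4 libraries of cells transfected with siRNA against YAP and TAZ for 48 h, 2 with mix 1 and 2 with mix 2, and 2 libraries of cells given control siRNA. Subtracting the YAP/TAZ effect from the JQ1 effect gives the difference of the effects, which is positive where a gene is higher after JQ1 than after YAP/TAZ siRNA, each relative to its own control.

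YAP (gene YAP1) and TAZ (gene WWTR1) are co-activators held in check by the Hippo kinases, and they reach DNA mainly through the TEAD factors, from which they drive genes of growth, adhesion and the cytoskeleton. BET proteins such as BRD2 and BRD3 read acetylated histones and help RNA polymerase II into elongation, and JQ1 is a small molecule that occupies their acetyl-lysine pocket. The question behind the series is the role of BET proteins in YAP/TAZ-driven transcription, and the comparison asks which genes the drug and the knockdown move together and which they move apart.

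The arms differ in more than the target. The siRNA arm was transfected with Lipofectamine RNAiMAX, while no transfection is stated for the JQ1 and DMSO cells, the times differ (24 h and 48 h), and no harvest time is given for either control. Control siRNA libraries differed from DMSO libraries in many genes, with 3478 called higher and 3931 called lower (25.4% and 28.7% of those tested). Nothing in the labels says whether the 2 libraries of a group are separate cultures, and p-values here rest on a spread that may be technical. Between 15741695 and 37311326 reads per library fell in genes (median of 10 libraries 22463415), and the replicates of a group differed by more than sampling noise (chi-square per gene 3.44 to 10.6). All 7 markers listed for the line were present, VIM and AXL highest after JQ1, with summed values of 11298 to 11327 after JQ1, 8573 to 8670 with DMSO, 6217 to 7551 after YAP/TAZ siRNA and 7093 to 7176 with control siRNA. CDH1, ESR1 and PGR of the luminal list were not among the genes measured, nor were PTPRC or CD3E of the leukocyte list. In bulk RNA, fewer cells of a state and less RNA per cell cannot be told apart.

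RNA was depleted of ribosomal RNA rather than selected for poly(A) tails, so transcripts without a tail were captured too. Values are the deposited read counts divided by a library-wise factor, and effects are differences of log2(value + 1). A gene is called when limma's two-sided test gives a Benjamini-Hochberg adjusted p under 0.05 over the 13674 genes tested. Adding 1 understates the change of genes with low values. YAP1 and WWTR1, the targeted genes, were low in all 4 knockdown libraries. YAP1 stood at 24.2 and 22.4 with mix 1 and 21.3 and 18.6 with mix 2, against 190 and 174 with control siRNA. WWTR1 stood at 15.3 and 17.2 with mix 1 and 12.8 and 12.7 with mix 2, against 135 and 126 with control siRNA. JQ1 lowered both genes far less, to 101 and 105 against 191 and 181 with DMSO for YAP1 (log2 difference -0.84, limma adjusted p = 3.36e-10), and to 66.5 and 63.9 against 81.8 and 82.3 with DMSO for WWTR1 (-0.33, limma adjusted p = 0.000115). BRD2, one of the proteins JQ1 binds, had 919 and 955 after JQ1 against 241 and 257 with DMSO, a rise of 1.91 on the log2 scale, while the YAP/TAZ effect on it was 0.18 (0.45 with mix 1 and -0.09 with mix 2). BRD3 had 35.2 and 34.4 after JQ1 against 28 and 29 with DMSO, and 35.8, 37.4, 35.6 and 32.1 after YAP/TAZ siRNA against 32.5 and 29.7 with control siRNA, with a difference of 0.11 and a 95% interval of -0.13 to 0.35.

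Large changes were shared far more often than opposed. JQ1 raised 1171 genes and lowered 1223 by at least 2-fold (8.56% and 8.94% of genes tested), and YAP/TAZ siRNA raised 1305 and lowered 1145 (9.54% and 8.37%). Of these, 604 genes were at least 2-fold lower in both, which is 49.4% of the genes JQ1 lowered and 52.8% of those YAP/TAZ siRNA lowered. Another 400 genes were at least 2-fold higher in both, or 34.2% of the JQ1 list and 30.7% of the YAP/TAZ list. The opposite corners were thinly filled, with 48 genes lower after JQ1 and higher after YAP/TAZ siRNA (3.92% and 3.68% of the lists) and 11 genes higher after JQ1 and lower after YAP/TAZ siRNA (0.94% and 0.96%). Of the shared genes, 602 of the 604 and 397 of the 400 were called with each siRNA mix taken alone, at any size. These genes were selected on the mean of the same libraries at 2-fold or more, so this count is largely set by the selection. The effects share no control library, and across all 13674 genes they correlated with Pearson's r of 0.54 and Spearman's rho of 0.51, with the same sign in 68.9% of genes (a description across genes, which are not independent replicates).

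The sizes of these groups changed with the model and the control. Tested on whole reads with count models, the genes higher in both numbered 763 with edgeR and 678 with DESeq2, those lower after JQ1 and higher after YAP/TAZ siRNA 180 and 163, and those higher after JQ1 and lower after YAP/TAZ siRNA 24 and 25. With both effects measured against DMSO the opposite groups held 82 and 21 genes, and each opposite group was smaller than each shared group in every one of these settings. With edgeR the genes higher in both outnumbered the 695 lower in both.

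**Figure D1:**
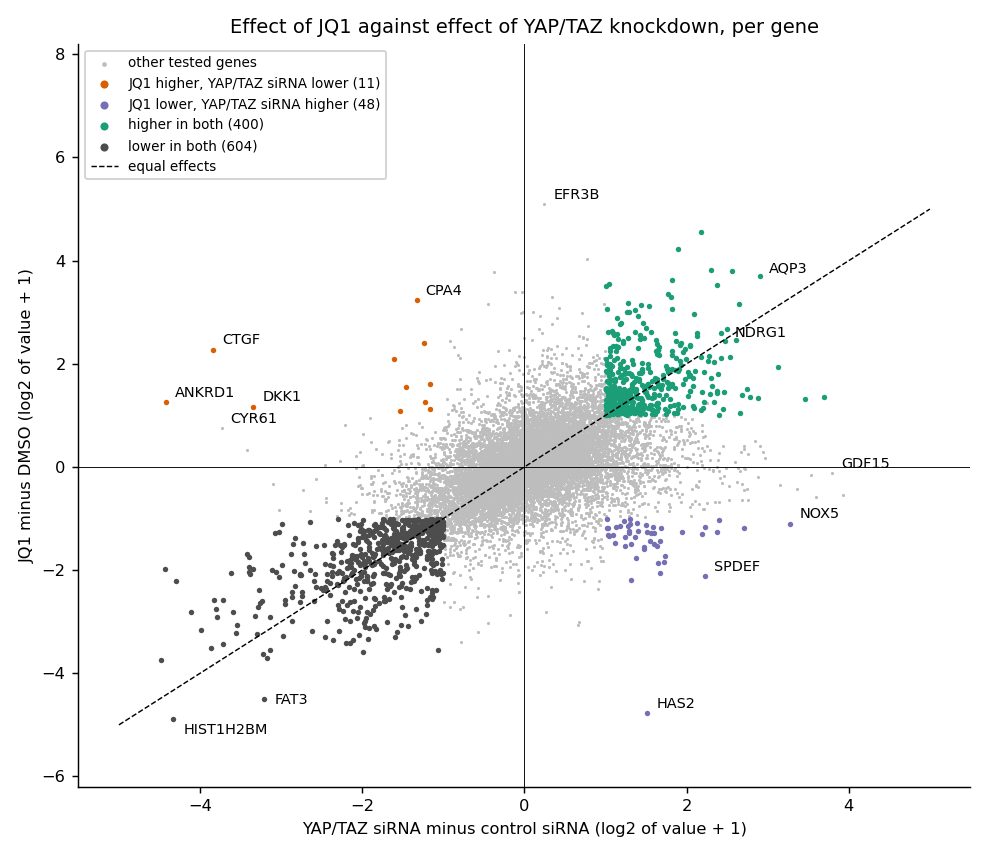
Effect of JQ1 (vertical axis) against effect of YAP/TAZ siRNA (horizontal axis) for 13674 genes, both as differences of log2(value + 1), with the genes changed by at least 2-fold in both coloured by direction and their numbers in the legend. Most coloured genes lie in the lower left (604) and upper right (400) corners, while CTGF, ANKRD1 and DKK1 lie far to the upper left and HAS2 far below the lower right group.

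Sharing a direction did not mean an equal change. The test of the difference itself called 4232 genes higher and 4430 lower (30.9% and 32.4% of genes tested), of which 944 and 1248 differed by at least 2-fold (6.9% and 9.13%). Among the 604 genes lower in both, 172 were lower after JQ1 by a called margin, 168 were lower after YAP/TAZ siRNA, and 264 were not called. For 236 of the 604 the 95% interval of the difference lay inside 0.5 on the log2 scale in either direction. Among the 400 genes higher in both, the difference was called higher for JQ1 in 142 and lower in 69, and the interval lay inside 0.5 in 138. Among all 13674 genes tested it lay inside 0.5 in 4329, a share not far below those of the shared genes. Some genes changed by at least 2-fold in 1 arm had a small effect in the other. Of the genes JQ1 raised and lowered by that much, 252 (21.5%) and 165 (13.5%) had a YAP/TAZ effect whose whole 95% interval lay inside 0.5. The same held for the JQ1 effect in 302 genes raised (23.1%) and 151 lowered (13.2%) by YAP/TAZ siRNA. The share of all tested genes with such intervals was not counted. Over all genes the quartiles were -0.39 and 0.52 for the YAP/TAZ effect and -0.43 and 0.46 for the JQ1 effect, so small effects were frequent.

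Genes of the dividing cell fell in both. All 45 mitosis genes measured and all 38 clustered histone genes were called lower after JQ1 and after YAP/TAZ siRNA, against 36.3% and 35.9% of all genes tested. Of the 50 DNA replication genes, 49 were called lower in both. Of the 42 genes of ribosome biogenesis and MYC targets, 40 were called lower after JQ1 and 42 after YAP/TAZ siRNA. At least 2-fold falls in both were reached by 37 mitosis, 35 histone, 34 replication and 15 ribosome biogenesis genes. Over all genes tested the median effects were 0.01 for JQ1 and 0.07 for YAP/TAZ siRNA. These lists were also lower in control siRNA than in DMSO libraries, against 28.7% of all genes called lower there. The counts were 29 of 45 mitosis, 29 of 38 histone, 36 of 50 replication and 40 of 42 ribosome biogenesis genes. The part of transfection in the YAP/TAZ effect was not tested.

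Clustered histone genes, whose transcripts carry no poly(A) tail and are made in S phase, gave the deepest shared falls. HIST1H2BM, which encodes a histone H2B, had 1.24 and 1.44 after JQ1 against 69.5 and 67 with DMSO. It had 2.51 and 3.02 with mix 1 and 0.977 and 1.56 with mix 2, against 61.7 and 53.6 with control siRNA. The effects were -4.89 ± 0.14 for JQ1 and -4.33 ± 0.12 for YAP/TAZ siRNA (log2 ± SE). Treated libraries without overlap with their controls were a condition of the ranking that named this gene. HIST1H2BB had 53.6 and 48.2 after JQ1 against 511 and 471 with DMSO, and 56.8, 57.9, 20.6 and 23.1 after YAP/TAZ siRNA against 384 and 332 with control siRNA. Its effects were -3.25 and -3.29, and their difference of 0.05 had a 95% interval of -0.23 to 0.33. The mixes lay apart here, at -2.62 for mix 1 and -3.97 for mix 2, on opposite sides of the JQ1 effect. The difference of the effects in the histone list was called higher in 22 of 38 (57.9%) and lower in 6, against 30.9% and 32.4% of all genes, with a median of 0.35 for both mixes, 0.14 for mix 1 alone and 0.63 for mix 2 alone, and 0.22 without JQ1 replicate 1. Those of HIST1H2BM, HIST1H3J, HIST1H2AB and HIST1H2BE lost their call when single libraries were left out, that of HIST1H2BM (-0.56) without JQ1 replicate 1 (-0.50) or control siRNA replicate 2 (-0.46). These genes are near copies of one another, so how reads were split among them is uncertain.

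FAT3, an atypical cadherin, was the shared fall outside the histones that the ranking by the weaker effect placed among its first 8. It had 1.97 and 2 after JQ1 against 68.6 and 63.9 with DMSO, and 5.83, 4.39, 4.59 and 3.3 after YAP/TAZ siRNA against 53 and 46.5 with control siRNA. Both treatments left it at a low level, and JQ1 lowered it further by 1.28 on the log2 scale (SE 0.163, limma adjusted p = 8.36e-07).

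Within these shared falls the mitosis list parted from the DNA replication and histone lists. Mitosis genes fell further after JQ1, with median effects of -2.42 for JQ1 and -1.72 for YAP/TAZ siRNA, and the difference was called lower in 36 of 45 genes (80.0%) and higher in 2, against 32.4% lower among all genes. DNA replication genes, like the histone genes, leaned the other way, with medians of -1.53 and -1.99 and the difference called higher in 29 of 50 (58.0%) and lower in 3, against 30.9% higher among all genes. The median difference was -0.73 for mitosis, -1.02 with mix 1 alone and -0.47 with mix 2 alone. For DNA replication it was 0.34, with 0.20 for mix 1 alone, 0.54 for mix 2 alone and 0.61 with both effects against DMSO, so the direction of the mitosis and DNA replication medians held with each mix and against DMSO while the sizes did not.

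AURKA, the centrosomal kinase of mitotic entry, had 35.5 and 36.8 after JQ1 against 346 and 333 with DMSO. It had 123, 132, 72.4 and 79.9 after YAP/TAZ siRNA against 303 and 287 with control siRNA. All treated libraries lay under their controls, and the fall was 9.18-fold after JQ1 and 2.97-fold after YAP/TAZ siRNA (difference -1.63 ± 0.09 SE, limma adjusted p = 3.88e-12). CCNB1 (cyclin B1), FOXM1, a transcription factor of G2 and mitotic genes, and MKI67, the Ki-67 antigen, differed by -1.63, -1.30 and -1.39 with the deeper fall after JQ1 in each. KIF23 and NCAPH, picked out after their values were seen, were the 2 mitosis genes with a called difference in favour of the deeper YAP/TAZ fall.

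CCNE2 (cyclin E2), which drives cells into S phase, showed the reverse. It had 17.8 and 18.5 after JQ1 against 76.8 and 71.5 with DMSO, and 2.51, 3.24, 1.27 and 1.15 after YAP/TAZ siRNA against 67.7 and 56.6 with control siRNA. It remained readily measurable after JQ1 and was nearly lost after YAP/TAZ siRNA, for a 3.92-fold fall and a 21.5-fold fall (difference 2.46 ± 0.14 SE, limma adjusted p = 4.61e-12). Other G1/S and replication genes named by the ranking parted in the same direction. The difference was 1.76 for E2F1, the activator of S-phase genes, and 1.72 for SKP2, the ubiquitin ligase subunit that removes p27. It was 1.65 for the origin licensing factor CDC6. PCNA, the sliding clamp, and POLE, the catalytic subunit of DNA polymerase epsilon, differed by 1.18 and 1.25. Of 24 G1/S genes, 17 were called lower after JQ1 and 21 after YAP/TAZ siRNA, against 36.3% and 35.9% of all genes, and the difference was called higher in 16 and lower in 5, against 30.9% and 32.4%. Its median of 0.59 came to 0.18 with mix 1 alone and 0.24 against DMSO. CCND1 (cyclin D1) went the opposite way after JQ1, with 1356 and 1323 against 909 and 888 with DMSO, and 868, 883, 533 and 525 after YAP/TAZ siRNA against 926 and 908 with control siRNA, where the fall rested on mix 2 (-0.79, against -0.07 for mix 1).

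**Figure D2:**
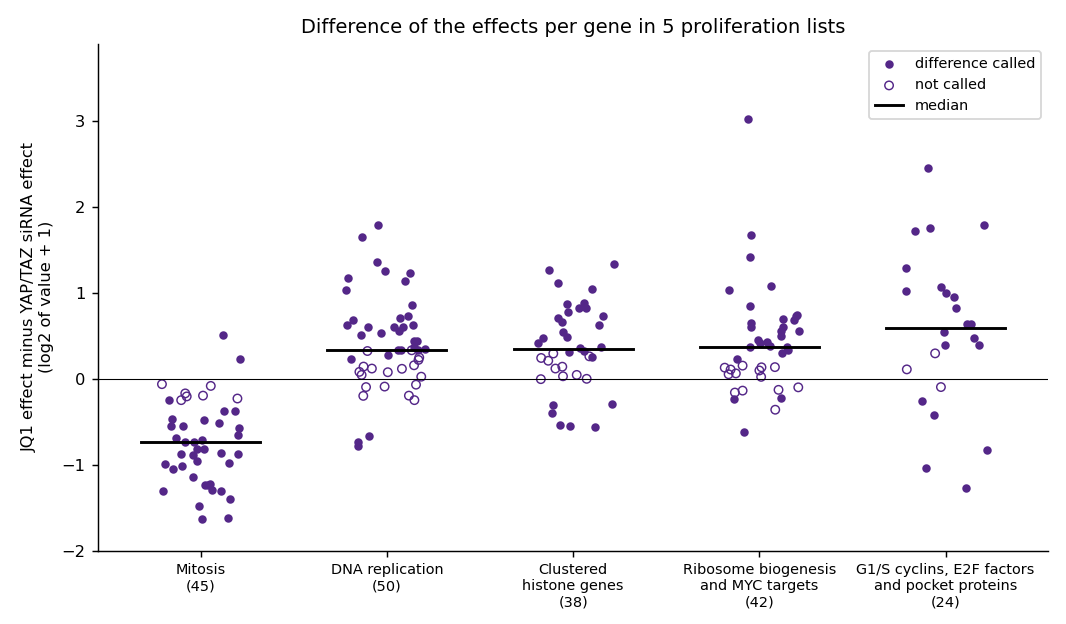
Difference of the effects (JQ1 effect minus YAP/TAZ siRNA effect, log2 of value + 1) for each measured gene of 5 lists, with filled points where the difference was called, open points where it was not, and the list median as a bar. The mitosis median lies at -0.73, and the medians of the other 4 lists lie between 0.34 and 0.59.

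Promoter sequence was looked at beside this split, because mitotic and S-phase genes are known to carry different control elements. The letters TTTGAA on either strand, the core of the cell cycle homology region that MuvB complexes bind, occurred within the 250 bases before the start of 22 of the 38 mitosis genes with an entry in the RefSeq promoter table (57.9%), of 1 of the 43 DNA replication genes with an entry (2.33%) and of 13.6% of all 27305 promoters in it. TTCCCGC or TTGGCGC on either strand, forms of the E2F site, occurred in 17 of the 43 DNA replication promoters (39.5%) and in 7.95% of all. These letters were also in 6 of the 38 mitosis promoters (15.8%). Only 2 of the 32 clustered histone promoters (6.25%) held them, although the histone list leaned the same way as DNA replication. The TTTGAA letters were also in 12 of the 32 clustered histone promoters with an entry (37.5%). CCAAT on either strand did not divide the lists in the same way, since it occurred in 71.1% of the mitosis, 58.1% of the DNA replication and 84.4% of the histone promoters, and in 33.0% of all. TATAAA on either strand occurred in 81.3% of the histone promoters and 11.1% of all. The choice of background moves these comparisons. Among the tested genes with an entry, the E2F letters were in 12.6% and TTTGAA in 8.47%, but with an entry for 78.8% of tested genes that background is incomplete. For 1 gene of each kind, the one with the strongest statistic of the difference among those that hold the motif, the window is printed 5′ to 3′ with the motif in capitals, from RefSeq on GRCh38.p14: MKI67 at chr10:128126424-128126673 (minus strand) with TTTGAA, and POLE at chr12:132687343-132687592 (minus strand) with the E2F letters, which read GCGCCAA on this strand and whose first copy there overlaps a CCAAT.
MKI67: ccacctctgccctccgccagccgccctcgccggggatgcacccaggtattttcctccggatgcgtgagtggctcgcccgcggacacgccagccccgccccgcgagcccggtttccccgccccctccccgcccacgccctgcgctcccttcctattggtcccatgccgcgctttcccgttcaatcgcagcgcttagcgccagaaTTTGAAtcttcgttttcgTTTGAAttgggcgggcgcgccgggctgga
POLE: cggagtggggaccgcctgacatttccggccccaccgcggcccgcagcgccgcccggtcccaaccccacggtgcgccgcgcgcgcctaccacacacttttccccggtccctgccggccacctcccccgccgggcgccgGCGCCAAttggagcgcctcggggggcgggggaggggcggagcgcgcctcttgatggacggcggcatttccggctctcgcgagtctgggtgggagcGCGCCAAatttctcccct
A match is a description of letters, not a binding site.

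Genes that rose in both were led by AQP3, a water and glycerol channel. It had 76.3 and 68.3 after JQ1 against 5.09 and 4.2 with DMSO, and 61.7, 59.7, 94.1 and 90.8 after YAP/TAZ siRNA against 7.67 and 10.8 with control siRNA. Treated and control libraries did not overlap in either arm, which the ranking required. The effects were 3.70 for JQ1 and 2.91 for YAP/TAZ siRNA, and their called difference of 0.80 came to -0.05 with both effects against DMSO, since control siRNA libraries already exceeded DMSO libraries by 0.85. MXD4, which competes with MYC for its partner MAX, had 195 and 176 after JQ1 against 19.3 and 20.3 with DMSO, and 156, 168, 263 and 266 after YAP/TAZ siRNA against 28.5 and 36.3 with control siRNA. Its difference of 0.51 likewise came to -0.16 against DMSO. NDRG1, a stress- and differentiation-linked gene, rose by 2.45 after JQ1 and 2.48 after YAP/TAZ siRNA, with a difference of -0.03 and a 95% interval of -0.20 to 0.14. That value averages called differences of opposite sign, -0.44 with mix 1 alone and 0.38 with mix 2 alone (limma adjusted p = 0.000175 and 0.000661). Here too the control siRNA libraries exceeded DMSO libraries, by 1.06, and with both effects against DMSO the difference was -1.09. BAIAP3, MAP1A, DYRK1B, KLHL24 and PNRC1 completed the 8, with JQ1 effects of 2.47 to 3.79 and YAP/TAZ effects of 2.38 to 2.61. Of the 400 genes higher in both, 247 were also called higher in control siRNA than in DMSO libraries and 36 lower, against 25.4% and 28.7% of all genes. Of the 604 genes lower in both, 367 were called lower in control siRNA than in DMSO libraries and 31 higher, with a median of -0.28. The part of transfection in these classes was not tested.

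The 6 CDK inhibitors measured did not move as one, with the difference called higher in 2 and lower in 3, against 30.9% and 32.4% of all genes. CDKN1A (p21) and CDKN1C (p57) rose in both and further after JQ1, by 2.88 against 1.15 and by 3.07 against 1.01 on the log2 scale. The rise of CDKN1A after YAP/TAZ siRNA was 1.94 with mix 1 and 0.35 with mix 2, and against DMSO the differences of 1.74 and 2.06 came to 0.71 and 0.84. CDKN2C (p18) had 28.4 and 29 after JQ1 against 67.8 and 69.3 with DMSO, and 107, 109, 124 and 125 after YAP/TAZ siRNA against 72.7 and 74.6 with control siRNA, so it fell after JQ1 and rose after YAP/TAZ siRNA (difference -1.88). CDKN1B (p27) rose in both, by 0.51 after JQ1 and 0.96 after YAP/TAZ siRNA, and its difference of -0.45 came to -1.59 against DMSO. Among lysosome and autophagy genes 28 of 45 were called higher after JQ1 and 35 after YAP/TAZ siRNA, against 37.6% and 43.1% of all genes, with medians of 0.36 and 0.38. Among hypoxia and glycolysis genes it was 21 and 22 of 32, and among p53 target genes 14 and 12 of 23. The median differences of these 3 lists were -0.08, 0.08 and -0.05, and each changed sign with 1 or both of the mixes alone.

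The largest positive differences included well known targets of YAP and TAZ. CTGF, which encodes a matricellular growth factor and is among the best known YAP/TAZ targets, had 1889 and 2036 after JQ1 against 415 and 393 with DMSO. It had 5.54 and 6.69 with mix 1 and 24.2 and 25.6 with mix 2, against 201 and 184 with control siRNA. Every JQ1 library lay above every DMSO library and every knockdown library below every control siRNA library. The gene thus rose 4.85-fold after JQ1 and fell 14.3-fold after YAP/TAZ siRNA, and the difference of 6.11 ± 0.09 (log2 ± SE, limma adjusted p = 6.36e-21) was the most positive among the named genes.

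ANKRD1, a cardiac ankyrin repeat protein induced by YAP/TAZ, had 2141 and 2243 after JQ1 against 934 and 900 with DMSO. It had 11.1, 12.3, 28.9 and 30.7 after YAP/TAZ siRNA against 441 and 403 with control siRNA, and no library crossed between groups. The effects were 1.26 and -4.42, and the difference 5.68 ± 0.09 (SE, limma adjusted p = 1.04e-20). CYR61, the close relative of CTGF, had 621 and 642 after JQ1 against 374 and 378 with DMSO, and 8.42, 8.56, 28.7 and 27.9 after YAP/TAZ siRNA against 229 and 213 with control siRNA. With a JQ1 effect of 0.75 it fell short of the 2-fold line, and the difference was 4.48 ± 0.07. In all 3 genes the control siRNA libraries lay below the DMSO libraries, by 1.06, 1.12 and 0.77 on the log2 scale, and mix 1 lowered them further than mix 2.

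The other genes above 2-fold in these opposite directions were DKK1, CPA4, MT1E, EPAS1, GPRC5A, ZNF114, SLC7A5, CLCN5 and CREG1. DKK1, a secreted Wnt inhibitor, had 2069 and 2060 after JQ1 against 955 and 881 with DMSO, and 20.3, 21.3, 47.4 and 51.7 after YAP/TAZ siRNA against 356 and 318 with control siRNA, for effects of 1.17 and -3.35. CPA4, a carboxypeptidase, had 219 and 227 after JQ1 against 21.8 and 23.7 with DMSO, and 12.5, 10.9, 6.8 and 7.48 after YAP/TAZ siRNA against 23 and 26.1 with control siRNA. Unlike CTGF and ANKRD1, its larger movement was the 9.43-fold rise after JQ1, and its control libraries differed by 0.10, which was not called (limma adjusted p = 0.28). MT1E, a metallothionein, had 398 and 396 after JQ1 against 96.7 and 87.1 with DMSO, and 19.5, 18.7, 47.9 and 53.1 after YAP/TAZ siRNA against 89.4 and 106 with control siRNA. In these 3 genes no library crossed between a treatment and its control, which the ranking that named them required. GPRC5A, a retinoic acid-induced receptor, rose by 2.41 after JQ1 and fell by 1.23 after YAP/TAZ siRNA, where mix 1 gave -0.45 and mix 2 gave -2.02. EPAS1, which encodes HIF-2 alpha, had effects of 1.55 and -1.45, and its difference of 3.00 came to 1.97 against DMSO. CLCN5 and CREG1 were picked out after their values were seen.

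TEAD factors recognise the core GGAATG, which occurred on either strand within the 250 bases before the start of 11.9% of all 27305 RefSeq promoters. The 4 genes of this class with the largest differences, CTGF (RefSeq symbol CCN2), ANKRD1, DKK1 and CPA4, all held it. Their windows are printed 5′ to 3′ on GRCh38.p14 with GGAATG in capitals: CTGF at chr6:131951373-131951622 (minus strand), ANKRD1 at chr10:90921088-90921337 (minus strand), DKK1 at chr10:52314031-52314280 (plus strand) and CPA4 at chr7:130292911-130293160 (plus strand).
CTGF: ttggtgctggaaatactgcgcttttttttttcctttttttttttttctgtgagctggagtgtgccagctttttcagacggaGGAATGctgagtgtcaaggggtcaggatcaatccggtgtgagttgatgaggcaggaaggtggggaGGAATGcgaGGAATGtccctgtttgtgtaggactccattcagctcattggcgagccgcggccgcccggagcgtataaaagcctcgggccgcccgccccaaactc
ANKRD1: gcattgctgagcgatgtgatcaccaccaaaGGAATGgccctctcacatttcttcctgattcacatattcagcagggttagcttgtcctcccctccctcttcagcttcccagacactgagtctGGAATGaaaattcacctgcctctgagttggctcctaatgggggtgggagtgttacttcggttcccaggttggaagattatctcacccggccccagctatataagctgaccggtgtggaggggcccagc
DKK1: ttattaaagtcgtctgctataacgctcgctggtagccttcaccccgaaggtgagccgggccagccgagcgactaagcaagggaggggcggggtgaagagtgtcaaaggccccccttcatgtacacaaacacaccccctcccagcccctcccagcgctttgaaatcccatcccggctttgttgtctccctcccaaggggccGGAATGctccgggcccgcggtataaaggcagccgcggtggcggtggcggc
CPA4: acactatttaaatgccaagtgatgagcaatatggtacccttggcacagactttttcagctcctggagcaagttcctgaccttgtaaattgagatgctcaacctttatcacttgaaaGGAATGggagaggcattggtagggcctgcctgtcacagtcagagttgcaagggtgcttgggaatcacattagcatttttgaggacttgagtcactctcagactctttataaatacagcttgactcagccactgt
CTGF held 3 copies, beginning 169, 104 and 95 bases before the annotated start, ANKRD1 held 2, and DKK1 and CPA4 held 1 each. Over the whole class of 11 genes, 8 had an entry in the table and 5 of these held GGAATG. In the class lower after JQ1 and higher after YAP/TAZ siRNA, 34 of 48 genes had an entry and 8 of these held it. Among tested genes with an entry it was in 9.42%. In each of these sets fewer than 80% of the genes had an entry, so these shares are incomplete.

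Across the list of YAP/TAZ target genes, 9 of the 28 measured were called lower after JQ1 and 12 higher, against 36.3% and 37.6% of all genes. After YAP/TAZ siRNA 21 were called lower, all 21 with each mix alone, against 35.9% of all genes, and the medians were -0.02 for JQ1 and -0.97 for YAP/TAZ siRNA. The difference was called higher in 19 (67.9%) and lower in 7, against 30.9% and 32.4% of all genes. In 9 genes JQ1 raised and YAP/TAZ siRNA lowered the transcript: CTGF, ANKRD1 and CYR61, TNFRSF12A (the TWEAK receptor), AMOTL2 (a YAP-binding angiomotin), F3 (tissue factor), AXL (a receptor tyrosine kinase), AJUBA and MYOF. In 7 of the 28 genes both lowered it, a share near that over all genes. Among all 13674 genes tested, 3152 were called lower in both, and 823 higher after JQ1 and lower after YAP/TAZ siRNA. Of the 7, EDN1 (endothelin 1), FJX1 and THBS1 (thrombospondin 1) fell by at least 2-fold in both. EDN1 and FJX1 fell further after JQ1, by 3.08 against 1.44 and by 2.53 against 1.12 on the log2 scale. AXL, one of the markers of the line, had 2355 and 2255 after JQ1 against 1370 and 1366 with DMSO, and 353, 378, 673 and 738 after YAP/TAZ siRNA against 1470 and 1431 with control siRNA. Members named in this paragraph beyond CTGF, ANKRD1, CYR61, AMOTL2 and AXL were picked out after their values were seen.

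**Figure D3:**
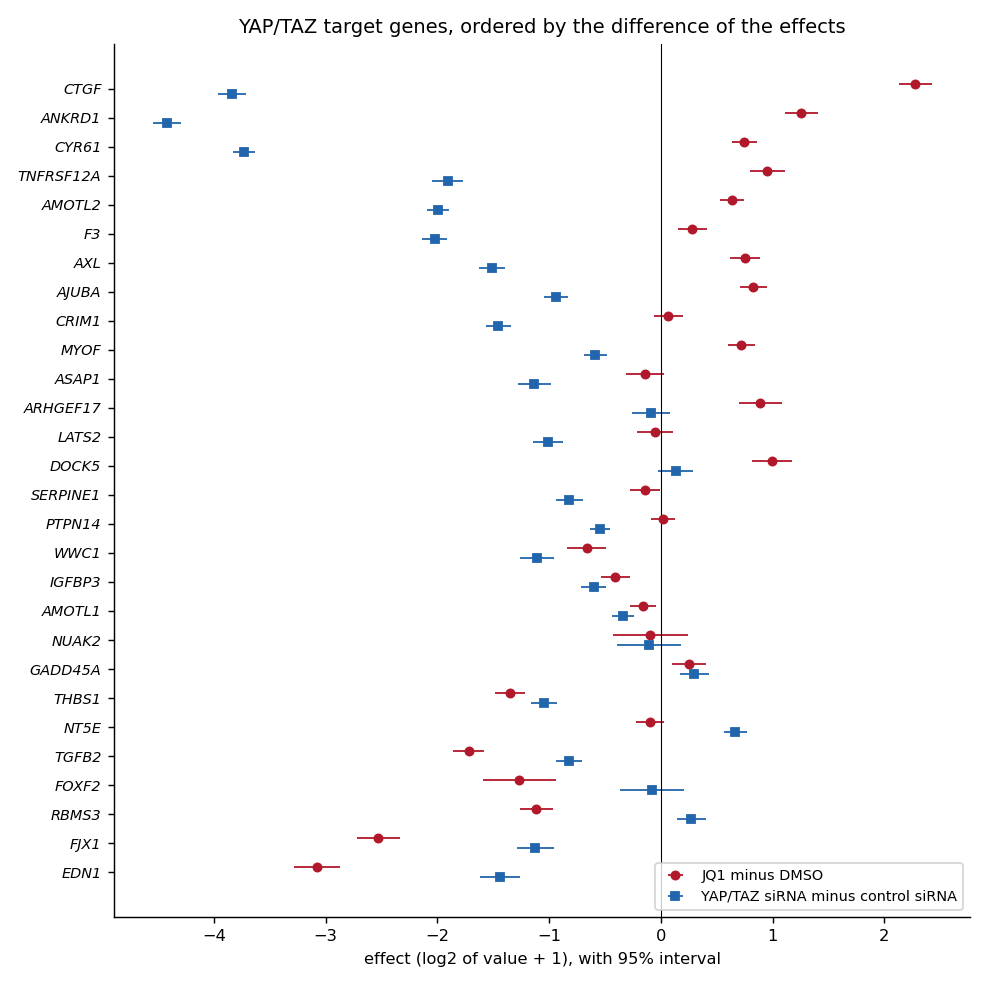
Effect of JQ1 (circles) and of YAP/TAZ siRNA (squares) on the 28 measured YAP/TAZ target genes, as differences of log2(value + 1) with 95% intervals, ordered by the difference of the effects. CTGF, ANKRD1 and CYR61 head the plot with effects on either side of 0, and EDN1 at the foot has the JQ1 effect of -3.08 beyond the YAP/TAZ effect of -1.44.

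Upstream of the targets, 29 Hippo kinase, TEAD and VGLL genes had the difference called higher in 16 and lower in 6, against 30.9% and 32.4% of all genes, with a median of 0.24. VGLL3, a TEAD cofactor, had 31.1 and 29.9 after JQ1 against 8.59 and 8.48 with DMSO, and 3.24, 3.96, 6.54 and 7.76 after YAP/TAZ siRNA against 8.79 and 7.52 with control siRNA. It rose by 1.72 after JQ1, and the fall of 0.58 after YAP/TAZ siRNA rested mainly on mix 1 (-0.99, against -0.17 for mix 2). Actin cytoskeleton and SRF target genes, which respond to the same mechanical cues as YAP/TAZ, split after JQ1, with 11 of 30 called higher and 13 lower, against 37.6% and 36.3% of all genes (median -0.05). After YAP/TAZ siRNA 4 were called higher and 21 lower, against 43.1% and 35.9%. The difference was called higher in 21 and lower in 6, against 30.9% and 32.4% (median 0.39). FLNA (filamin A) had 8773 and 8482 after JQ1 against 3910 and 3952 with DMSO, and 2692, 3066, 3406 and 3371 after YAP/TAZ siRNA against 3511 and 3842 with control siRNA. For ACTB the difference of 0.99 came to -0.06 under quantile normalization.

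Genes that JQ1 lowered and YAP/TAZ siRNA raised were led by HAS2, a hyaluronan synthase of the cell coat. It had 0.361 and 0.878 after JQ1 against 43.8 and 41.9 with DMSO. It had 161, 148, 202 and 207 after YAP/TAZ siRNA against 64.4 and 58.5 with control siRNA. JQ1 left it at values under 1 while both siRNA mixes raised it. The fall was 27.4-fold, the rise 2.86-fold and the difference -6.29 ± 0.14 (SE, limma adjusted p = 2.21e-18), the most negative among the named genes. SPDEF, an ETS factor of secretory epithelium, had 4.97 and 3.79 after JQ1 against 21.7 and 22.7 with DMSO, and 104, 113, 128 and 136 after YAP/TAZ siRNA against 24.9 and 24.4 with control siRNA. Here the arms mirrored each other, with effects of -2.11 and 2.23, and the control siRNA libraries differed from the DMSO libraries by 0.15, which was not called (limma adjusted p = 0.20). NOX5, a calcium-activated NADPH oxidase, had 1 and 1.02 after JQ1 against 3.27 and 3.34 with DMSO, and 174, 173, 78.2 and 87.2 after YAP/TAZ siRNA against 11.9 and 11 with control siRNA. The other named genes of this class, DSC2 (desmocollin 2), TNFSF15, CD96, SNTB1, PRR5L and LOC100127888, had JQ1 effects of -1.43 to -2.05 and YAP/TAZ effects of 1.47 to 1.74.

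Of the 48 genes of this class, 27 were called higher in control siRNA than in DMSO libraries and 4 lower, against 25.4% and 28.7% of all genes. The median of that contrast was 0.39. Among the lists it held 1 matrix gene (HAS2), 1 NF-kB and cytokine gene (ICAM1), 2 interferon-stimulated genes (IFITM1 and OAS2) and 1 luminal marker (SPDEF). In the NF-kB list 19 of 27 genes were called lower after JQ1 and 9 after YAP/TAZ siRNA, against 36.3% and 35.9% of all genes. The difference was called lower in 14 (51.9%) and higher in 7, against 32.4% and 30.9%. ICAM1, an adhesion molecule under NF-kB control, had 4.77 and 4.92 after JQ1 against 12.5 and 13.4 with DMSO, and 165, 159, 49.3 and 50.6 after YAP/TAZ siRNA against 21.4 and 24.1 with control siRNA. CSF1 (a macrophage growth factor), TRAF1 and TNFAIP2 parted likewise, with differences of -2.22, -2.24 and -1.73. The list median of -0.47 came to -0.17 with a pseudocount of 4, -1.01 with edgeR, -0.75 with mix 1 alone and -1.02 against DMSO.

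Interferon-stimulated genes were called higher after JQ1 in 24 of 45 cases and after YAP/TAZ siRNA in 34 (37.6% and 43.1% of all genes were), and 16 and 4 lower (36.3% and 35.9%). The difference was called lower in 23 and higher in 13, against 32.4% and 30.9%. Control siRNA libraries themselves were called higher than DMSO libraries in 34 of the 45, against 25.4% of all genes, with a median of 0.70. The part of transfection in the YAP/TAZ effect on these genes was not tested. The median difference of -0.29 came to -1.11 against DMSO. OAS2 (an antiviral oligoadenylate synthetase) had 3.45 and 3.79 after JQ1 against 8.69 and 8.45 with DMSO, and 50.9, 51.7, 63.2 and 67.9 after YAP/TAZ siRNA against 23.8 and 24.7 with control siRNA. Its difference of -2.27 came to -3.67 against DMSO.

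**Figure D4:**
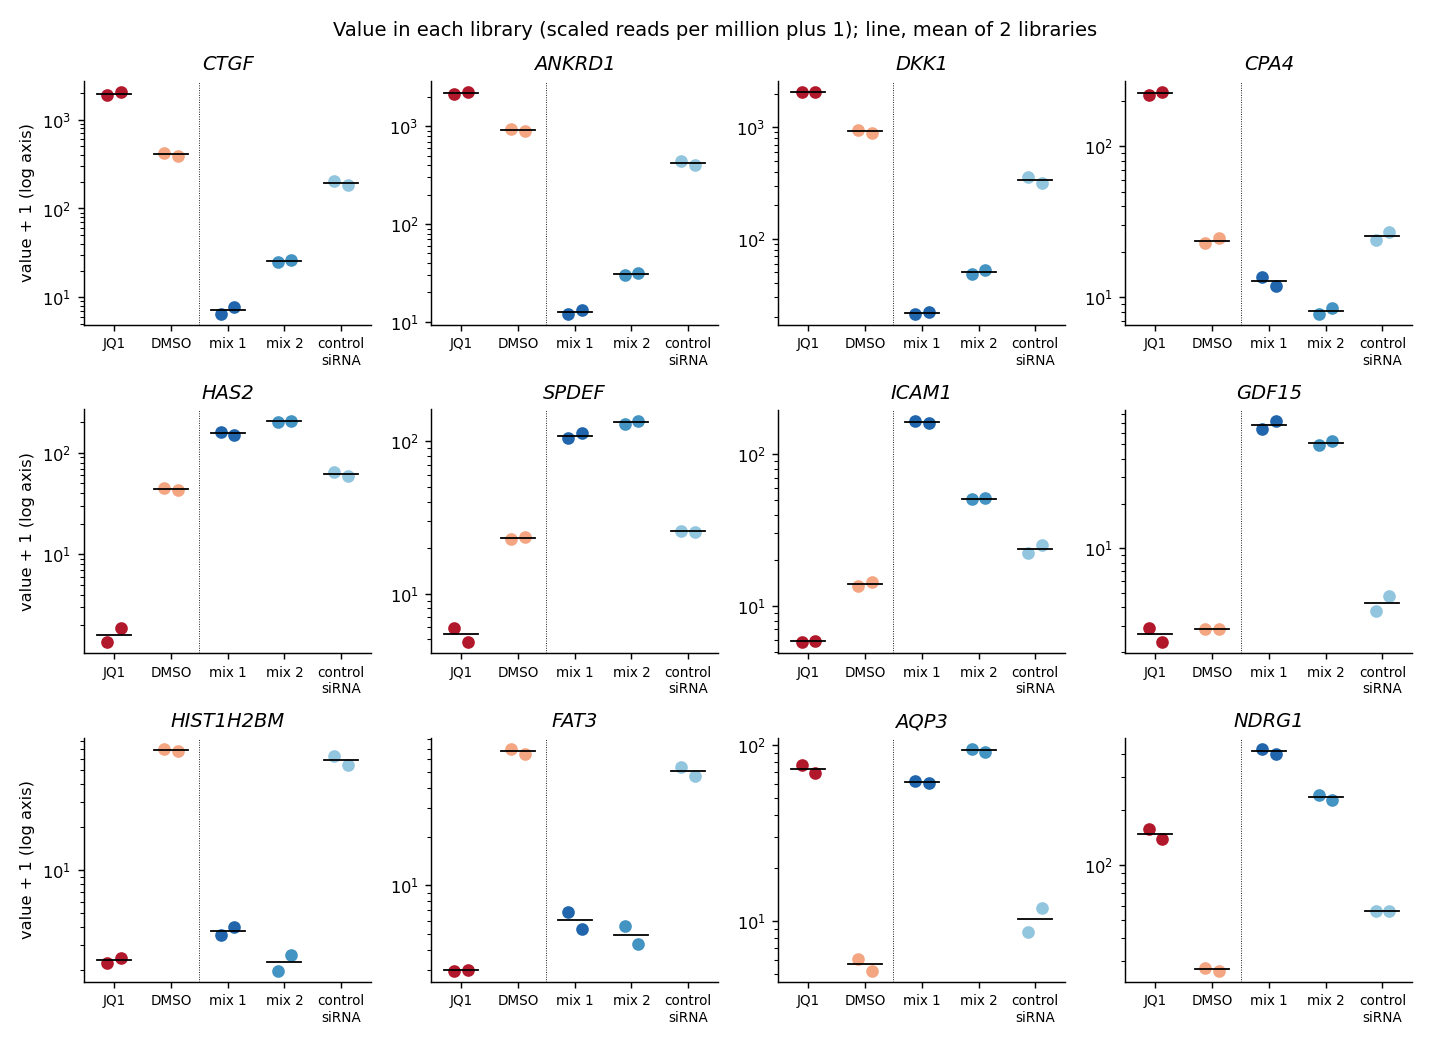
Value plus 1 (library-scaled reads, log axis) of 12 genes in each of the 10 libraries, for JQ1, DMSO, YAP/TAZ siRNA mix 1 and mix 2, and control siRNA, with the group mean as a line. In the upper row JQ1 libraries lie above DMSO and siRNA mixes below control siRNA, in HAS2, SPDEF and ICAM1 the reverse holds, GDF15 is high in the siRNA mixes, and in the lower row both arms move the same way.

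Some of the largest differences came mainly from 1 arm. EFR3B, a plasma membrane protein that anchors a lipid kinase complex, had 95.8 and 102 after JQ1 against 2.01 and 1.82 with DMSO, a 34.2-fold rise. It had 1.21, 1.28, 2 and 2.48 after YAP/TAZ siRNA against 1.23 and 1.32 with control siRNA, a YAP/TAZ effect of 0.24, and the JQ1 libraries stood far above the rest (difference 4.85 ± 0.17 SE). GDF15, a stress-induced cytokine, was the mirror case. It had 1.93 and 1.33 after JQ1 against 1.85 and 1.85 with DMSO, and 62.8, 71.3, 48.8 and 51.4 after YAP/TAZ siRNA against 2.77 and 3.79 with control siRNA (difference -3.92 ± 0.18 SE). Its JQ1 effect of -0.12 had a 95% interval of -0.40 to 0.15. EPHB6 and LOC101927318 were under 2 in JQ1, DMSO and control siRNA libraries and higher after YAP/TAZ siRNA, with differences of -4.16 and -4.46.

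Amino acid and stress genes were another line of parting. Among integrated stress response and unfolded protein genes, 21 of 32 were called higher after JQ1 and 6 lower, against 37.6% and 36.3% of all genes. After YAP/TAZ siRNA 14 were called higher and 13 lower, shares near the 43.1% and 35.9% of all genes. The difference was called higher in 19 and lower in 5, against 30.9% and 32.4%, with a median of 0.47 (0.25 with mix 1 alone). ASNS (asparagine synthetase) had 324 and 328 after JQ1 against 50.2 and 50.6 with DMSO, and 35.8, 38.6, 24.3 and 29.4 after YAP/TAZ siRNA against 58.2 and 51.4 with control siRNA. It rose 6.36-fold in one arm and fell 1.71-fold in the other (difference 3.45 ± 0.12 SE, limma adjusted p = 1.77e-15). SLC7A5 and SLC3A2, the subunits of the large neutral amino acid transporter, had differences of 2.61 and 1.72, and both rose after JQ1 and fell after YAP/TAZ siRNA. ODC1, the first enzyme of polyamine synthesis and the MYC target with the largest difference, had 531 and 595 after JQ1 against 329 and 311 with DMSO, and 66, 63.4, 35.1 and 44.1 after YAP/TAZ siRNA against 245 and 230 with control siRNA. It was 1 of 2 genes of its list that JQ1 raised. The median difference of that list, 0.37, came to 0.89 against DMSO.

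Known BET inhibitor response genes moved in both arms. HEXIM1, the P-TEFb inhibitor whose rise is widely used to read BET inhibition, had 213 and 225 after JQ1 against 71 and 80.4 with DMSO, and 124, 130, 102 and 100 after YAP/TAZ siRNA against 53.2 and 58.4 with control siRNA. Both effects were called, 1.52 and 1.01, and the difference of 0.51 was called as well (limma adjusted p = 3.09e-05) and came to 0.95 against DMSO. SERPINI1, another gene known to rise with BET inhibitors, had 51.7 and 50.7 after JQ1 against 6.32 and 6.93 with DMSO, and 19.9, 17.6, 26.5 and 26.4 after YAP/TAZ siRNA against 8.79 and 9.75 with control siRNA. The gene was higher in every treated library than in its controls, and more so after JQ1. MYC had 123 and 120 after JQ1 against 152 and 155 with DMSO, a modest fall of 0.34 on the log2 scale. It had 44.7 and 42.6 with mix 1 and 79 and 81.5 with mix 2, against 98.3 and 97.7 with control siRNA, and its difference of 0.38 came to -0.05 with mix 2 alone and 1.02 against DMSO. FOSL1, an AP-1 subunit, fell by 0.80 after JQ1 and 2.16 after YAP/TAZ siRNA. Of the 15 genes of the list measured, 5 were called higher in both, 7 lower in both and 2 (TERT and ZMYND8) lower after JQ1 and higher after YAP/TAZ siRNA, with ZMYND8 picked out after its values were seen. Among all 13674 genes tested, 3293 were called higher in both, 3152 lower in both and 1020 lower after JQ1 and higher after YAP/TAZ siRNA.

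Among luminal markers the difference was called lower in 9 of 13 and higher in 3, against 32.4% and 30.9% of all genes, with a median of -1.17. After JQ1 5 of the 13 were called higher and 3 lower (median 0.09), while after YAP/TAZ siRNA 11 were higher and 0 lower (median 1.22). Among all genes 37.6% and 36.3% were higher and lower after JQ1, and 43.1% and 35.9% after YAP/TAZ siRNA. Beside SPDEF, TFF3 (a secreted trefoil peptide) had 0.923 and 0.492 after JQ1 against 0.908 and 0.884 with DMSO, and 49, 49.1, 119 and 115 after YAP/TAZ siRNA against 4.96 and 6.44 with control siRNA. The keratins ran against this, since KRT18 and KRT19 rose by 1.41 and 3.11 after JQ1 and by 0.11 and 1.54 after YAP/TAZ siRNA. With KRT8, KRT18 and KRT19 as its most abundant members, the list's summed value was 5434 to 5909 after JQ1 against 1466 to 1470 with DMSO, and 2489 to 2697 after YAP/TAZ siRNA against 1363 to 1420 with control siRNA. Markers of leukocytes and of fibroblasts and endothelium were scarce, with 4 of 10 and 4 of 11 measured. Their sums were 79.8 to 83.3 after JQ1 against 70.6 to 71.7 with DMSO and 123 to 183 after YAP/TAZ siRNA against 67.5 to 69.7 with control siRNA for leukocytes, with CD68 the most abundant. For fibroblasts and endothelium they were 18.2 to 18.9 after JQ1 against 12.2 to 13.3 with DMSO, and 39.1 to 47.6 after YAP/TAZ siRNA against 13.6 to 17.9 with control siRNA. The part of these markers in the results was not tested.

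Of 43 extracellular matrix and adhesion genes, 17 were called higher and 20 lower after JQ1, against 37.6% and 36.3% of all genes. After YAP/TAZ siRNA 27 were called higher and 12 lower, against 43.1% and 35.9%. The difference was called lower in 23 and higher in 11, against 32.4% and 30.9% (median -0.31, -0.69 with mix 1 alone, -0.15 with mix 2 alone and -0.85 against DMSO). PLAT, tissue plasminogen activator, went against the list, with 962 and 907 after JQ1 against 141 and 138 with DMSO and 381, 386, 157 and 166 after YAP/TAZ siRNA against 141 and 148 with control siRNA. Cholesterol synthesis genes depended on the mix. The median difference was -0.36 for both mixes, -0.68 with mix 1 alone and 0.07 with mix 2 alone, and HMGCS1, an early enzyme of the pathway, had YAP/TAZ effects of 2.13 with mix 1 and 0.20 with mix 2, with its difference of -1.28 at -2.27 against DMSO. AP-1 factors did too, with a median difference of 0.28, -0.27 with mix 1 alone and 0.91 with mix 2 alone.

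**Figure D5:**
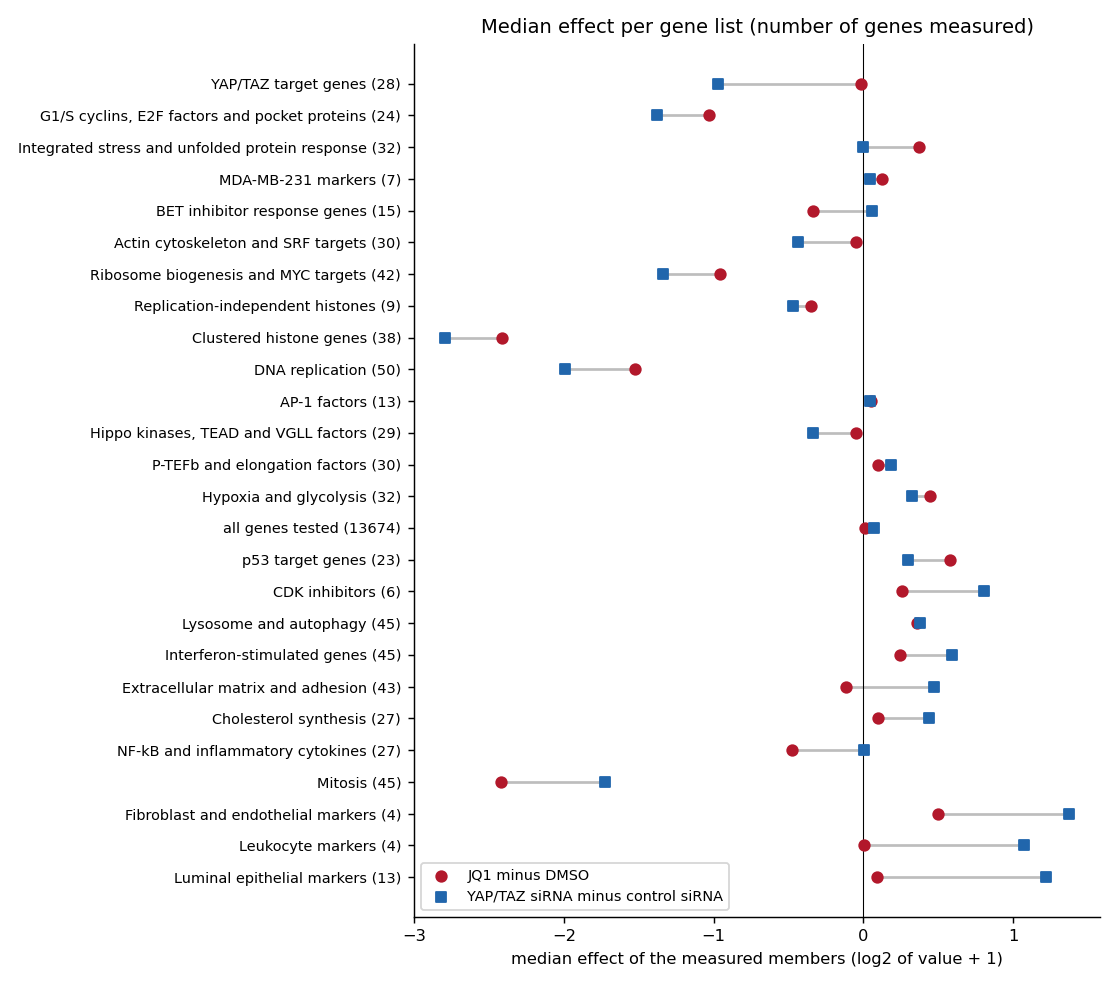
Median effect of JQ1 (circles) and of YAP/TAZ siRNA (squares) over the measured members of 25 gene lists and over all 13674 genes tested, as differences of log2(value + 1), ordered by the median difference of the effects. YAP/TAZ target genes have the widest gap with JQ1 on the right, at -0.02 against -0.97, and luminal markers with JQ1 on the left, at 0.09 against 1.22, while mitosis, DNA replication and histone genes lie far below 0 for both.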

How the data were processed

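MDA-MB-231 total RNA was sequenced after ribosomal RNA depletion with a stranded TruSeq kit, per the labels' protocols. The hg19 build, HTSeq 0.6.0, TopHat2 2.0.5, CASAVA 1.8.4, R 3.0.0 and edgeR are listed in the submitters' processing notes. For the annotation, strand setting, filter and scaling method, nothing was given in these sources. The deposited table holds signal values for 13734 genes, read counts that the authors divided by a library-wise factor, with columns summing to between 903627 and 1098052. Each value was a whole multiple of the worth of 1 read in its library for 100% of values (tolerance 0.01), so whole reads were recovered. The scaling factors implied by the column sums were nearly those of edgeR's TMM method (trimmed mean of M-values) on these reads, with a largest difference of 0.00185. The design had assumed values that sum to the same total in each library, and the columns do not, so the values are treated as scaled signal. Depth was 15741695 to 37311326 recovered reads, and precision at low values is limited by that depth. 0 columns belonged to other samples.

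Effects were fitted with limma 3.58.1 (R 4.3.3) on log2(value + 1), with 7 group means over all 14 libraries, a mean-variance trend and 7 residual degrees of freedom (13.2 prior). The residual SD was 0.0852 in the median. The 13674 genes tested reached a value of 1 in 2 or more libraries, and p-values were two-sided with Benjamini-Hochberg adjustment. On the recovered reads edgeR 4.0.16 (quasi-likelihood) called the difference higher in 4265 and lower in 4153 genes, and DESeq2 1.42.0 in 3988 and 3773. Both serve as alternatives, as do other pseudocounts, filters and normalizations, each mix alone, DMSO as the control of both effects, a replicate block and leaving out each library. The fits were tested on simulated data. Tables and plots used Python 3.11.15, pandas 2.3.3 and matplotlib 3.10.9.

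The compared effects and gene lists were chosen with earlier results of these data known. Named genes were a fixed set (YAP1, WWTR1, BRD2, BRD3, CTGF, CYR61, ANKRD1, AXL, MYC, HEXIM1 and SERPINI1) and genes taken by rankings. By the weaker effect, 8 were taken per shared and opposite class. These needed a mean of at least 5 in the higher group of each comparison, both effects called and no overlap between treated and control libraries. Genes of the opposite classes also needed a called difference. By the largest difference, 6 were taken per direction among genes with a called difference and a mean of at least 5 in the highest of the compared groups. Up to 4 per list were taken by the moderated statistic of the difference, without these filters. Promoter sequences and symbols came from RefSeq on GRCh38.p14, and no coordinates were converted.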

Additional observations from a re-analysis of the deposited data

Results flagged for a closer look

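In 3 of the named genes the siRNA mixes had called effects of opposite direction, and the difference between the mixes was itself called by limma over all genes. ITGA3, an integrin alpha subunit of the matrix and adhesion list, had 1054 and 1135 with mix 1 and 359 and 369 with mix 2, against 695 and 765 with control siRNA. Mix 1 exceeded mix 2 by 1.58 on the log2 scale. FDPS, an enzyme of the cholesterol synthesis list, had 266 and 267 with mix 1 and 138 and 142 with mix 2, against 193 and 194 with control siRNA, and the mixes differed by 0.92. CCNG1 (cyclin G1), of the p53 target list, had 192 and 186 with mix 1 and 107 and 117 with mix 2, against 157 and 146 with control siRNA, and the mixes differed by 0.75. The averaged YAP/TAZ effect of these 3 genes lies between mixes of opposite sign.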

How the results depend on the processing

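Over 131 named genes and 24 alternatives, a called difference of the effects changed sign in 10 cases. Otherwise the difference kept its side of the threshold in 3065 cases, lost the call in 39 and gained it in 28. Sign changes of differences not called in the main fit were not counted apart and lie within the 3065 and the 28. Examples are BRD3 against DMSO (-0.0145) and HIST1H2BB with mix 1 alone (-0.63). The sign changes of called differences were, with both effects against DMSO, HIST1H2BE (0.00918), AQP3 (-0.0532), MXD4 (-0.16), PNRC1 (-0.12), S100A4 (-1.27) and MSN (0.34), with mix 1 alone HIST1H2AB (-0.0485) and H2AFV (-0.0583), with mix 2 alone MYC (-0.0522), and with quantile normalization ACTB (-0.0629). Genes at least 2-fold higher in both (400) came to 678 with DESeq2, 763 with edgeR and 197 with a pseudocount of 4. Genes higher after JQ1 and lower after YAP/TAZ siRNA (11) came to 25 with DESeq2, 24 with edgeR, 21 against DMSO, 20 with mix 1 alone, 24 with mix 2 alone and 17 with a pseudocount of 0.25. Genes lower after JQ1 and higher after YAP/TAZ siRNA (48) came to 163 with DESeq2, 180 with edgeR, 82 against DMSO, 109 with a pseudocount of 0.25 and 16 with a pseudocount of 4. Genes whose difference was at least 2-fold lower (1248) came to 731 with a pseudocount of 4. NDRG1, not called in the pooled comparison, was called lower with mix 1 alone and higher with mix 2 alone. A larger pseudocount shrinks the folds of low genes by construction, and for the other settings the cause was not tested. Leaving out each library gave 358 to 432 genes higher in both, 584 to 616 lower in both, 11 to 13 and 46 to 53 in the opposite classes. With the replicate number as a replicate block the difference was called higher in 4228 genes and lower in 4414, and the 4 class counts did not move. Deviations of same-numbered libraries correlated at -0.13 to 0.25, so not every such pair deviated together, and whether same-numbered libraries share a batch or day is not given in the labels. The median difference of a list changed sign in 10 of 600 cases, for CDK inhibitors against DMSO (0.26) and with mix 2 alone (0.11), AP-1 factors (-0.27) and hypoxia genes (-0.10) with mix 1 alone, p53 targets with mix 1 (0.14) and mix 2 (0.18) alone, P-TEFb factors (-0.02), cholesterol synthesis (0.07) and lysosome genes (0.00) with mix 2 alone, and the MDA-MB-231 markers with quantile normalization (-0.30). With 2 libraries a group, different controls, times and transfection between the arms, the difference of the effects cannot be told apart from those differences.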
